A study of Homo sapiens with 2 samples.

Results

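The genes described here encode the SRC family of tyrosine kinases together with SYK and CSK, chosen by name: FGR, LYN, FYN, SRC, YES1, LCK, BLK, CSK and SYK. Of these 9 names, 7 had a row among the 30856 gene rows of the deposited table; LCK and BLK are not analysed here. All 7 counted as expressed, that is, they reached 1 FPKM in at least 1 library (FPKM, read fragments scaled to transcript length and library size), as did 11388 genes with a symbol in all. FGR and SRC passed this filter through the resistant library alone, so a filtered count of members is no evidence that they differ.

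Poly(A) RNA was sequenced from THP-1, a line grown from a human monocytic leukaemia. One library came from Ara-C resistant THP1 cells, derived by stepwise exposure to cytarabine (Ara-C, a nucleoside analogue used against leukaemia) from 5 nM up to 10 µM, and called resistant once they doubled as fast as untreated cells. The other library came from untreated parental THP1 cells. There was 1 library per group, so no spread between cultures is known, no test between the conditions is possible, and every difference below compares 2 libraries. The labels do not say whether the resistant cells are a single clone or a pool, or whether the drug was present at harvest. The resistant library held 58285463 counts and the parental library 57434972.

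SRC family kinases are cytoplasmic tyrosine kinases that sit on the inner face of the plasma membrane. In monocytes and macrophages they phosphorylate the ITAM motifs of Fc and related receptors, and SYK binds those phosphorylated motifs and passes the signal on to adaptors and phospholipase C. CSK holds the family in check by phosphorylating a tyrosine close to the carboxyl end of each family kinase, which folds the kinase into a closed form. FGR and LYN are mainly kinases of blood cells, whereas SRC, FYN and YES1 are widely expressed.

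The 2 ends of the coding sequence show what these kinases share and how they differ, and are printed for FGR, YES1 and SRC, whose levels differed most between the libraries, with FYN beside them. The first 24 coding bases are given 5′ to 3′, from GENCODE transcripts on GRCh38, with codons 3 and 6 in capitals. The second codon encodes the glycine that receives the fatty acid myristate, and a cysteine at codon 3 or 6 is a site where palmitate can be added.
FGR: atgggcTGTgtgttcTGCaagaaa
YES1: atgggcTGCattaaaAGTaaagaa
SRC: atgggtAGCaacaagAGCaagccc
FYN: atgggcTGTgtgcaaTGTaaggat

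FGR and FYN have cysteine codons at both places, YES1 at codon 3 only, and SRC has serine codons at both. The last 36 coding bases, stop codon included, are set out next, with the codon of the tyrosine that CSK phosphorylates in capitals.
FGR: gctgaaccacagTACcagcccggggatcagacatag
YES1: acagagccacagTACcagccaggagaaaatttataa
SRC: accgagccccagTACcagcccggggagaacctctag
FYN: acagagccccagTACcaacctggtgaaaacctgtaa

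In all 4 genes this tyrosine codon is followed by 6 more codons before the stop. The coding sequence is 1590 bases long in FGR, 1632 in YES1, 1611 in SRC and 1614 in FYN, against 1353 in CSK, which has no such tail, and 1908 in SYK. The proteins are related, but the messages are distinct at the length of a read. The longest identical stretch between any 2 of the 7 genes' transcripts was 23 bases, between FYN and YES1, and no window of 100 bases in any of the 7 transcripts occurred in a transcript of another gene of the annotation.

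The kinases of the resistant library differed from those of the parental library mainly in 3 family genes. FGR was 3.12-fold higher (95% counting interval 2.54 to 3.85), SRC was 1.87-fold higher (1.63 to 2.14), and YES1 was 2.60-fold lower (2.42 to 2.79). SYK was 1.31-fold higher (1.28 to 1.34), LYN was 1.17-fold lower (1.13 to 1.21), FYN was 1.08-fold higher (1.01 to 1.15), and CSK stood at 0.989-fold (0.959 to 1.02). Each fold compares a gene's count per library total, and the exact intervals cover counting error only. They treat read pairs as separate molecules and hold no spread between cultures. In bulk RNA, fewer cells with a transcript and less transcript per cell cannot be told apart.

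**Figure D1:**
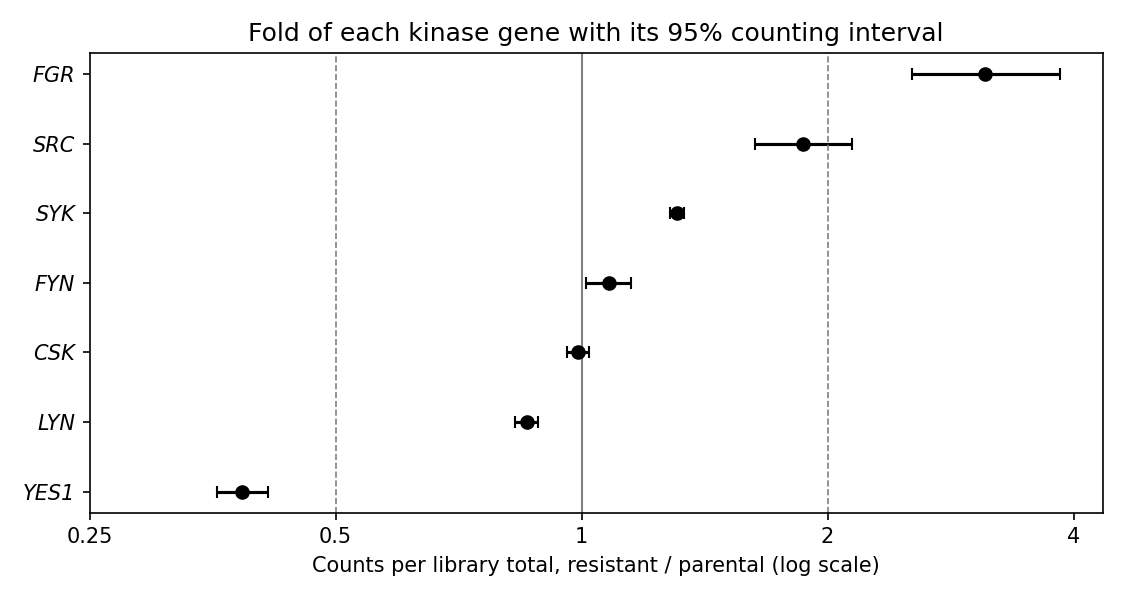
Fold of each kinase gene in resistant over parental cells, from counts relative to the library total (log scale), with exact 95% counting intervals; the dashed lines mark 2-fold. FGR and SRC lie to the right at 3.12 and 1.87, YES1 lies to the left at 0.385, and the other 4 genes lie between 0.857 and 1.31.

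Among the family kinases, LYN, which in myeloid cells can start both activating and inhibitory signals, had the highest level in both libraries. It stood at 16.4 FPKM (6872 counts) in resistant cells and at 19.2 FPKM (7900 counts) in parental cells. That was 61.6% of the summed FPKM of the 5 family genes of the set in resistant cells, and 59.4% in parental cells. Of the 3298 expressed genes within 2-fold of its mean level, 16.2% were at least as much lower by counts. LYN was thus slightly lower in resistant cells while its part of the family sum was slightly larger.

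YES1, a widely expressed family kinase, stood behind LYN and FYN in resistant cells, but behind LYN alone in parental cells. It had 3.10 FPKM (1074 counts) in resistant cells, against 8.09 FPKM (2752 counts) in parental cells. Its part of the family sum was 11.6% in resistant and 24.98% in parental cells. Of the 4791 expressed genes whose mean level lay within 2-fold of that of YES1, 0.626% were at least as much lower by counts. The ratio of LYN to YES1 in FPKM was 5.30 in resistant cells, against 2.38 in parental cells. YES1 (ENSG00000176105) lies on chromosome 18 from 721588 to 812546, on the minus strand (GRCh38, as are all coordinates here). Within its bounds the table lists a pair of long noncoding RNA rows, which had 3 counts in resistant and 14 in parental cells on the same strand, and 7 in resistant and 0 in parental cells on the opposite strand. The pseudogene YES1P1 had 6 counts in resistant cells and 0 in parental cells, where a count of 0 allows up to 3.

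FGR, a kinase of monocytes and granulocytes, was the lowest of the set in parental cells but not in resistant cells. It stood at 1.67 FPKM from 386 counts in resistant cells, against 0.53 FPKM from 122 counts in parental cells. FGR made up 6.26% of the family sum in resistant cells and 1.64% in parental cells. Of the 2372 expressed genes within 2-fold of its mean level, 2.82% were at least as much higher by counts. Genes with a mean below 1 FPKM enter that set only if 1 library reached 1 FPKM. FGR itself entered through the resistant library alone, so this share is no evidence that it differs. FGR (ENSG00000000938) lies on chromosome 1 from 27612064 to 27635185, on the minus strand, and no other row of the table overlaps it.

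SRC, the founding member of the family, was also low in both libraries. It stood at 1.39 FPKM from 614 counts in resistant cells, against 0.75 FPKM from 324 counts in parental cells. Of the 2295 expressed genes within 2-fold of its mean level, 7.58% were at least as much higher by counts. The filter shapes this set as it does that of FGR, so this share too is no evidence of a difference. Its part of the family sum was 5.21% in resistant and 2.32% in parental cells. SRC (ENSG00000197122) lies on chromosome 20 from 37344685 to 37406050, on the plus strand, with no overlapping row. SRC was thus below FGR in resistant cells and above it in parental cells. The counting intervals of the 2 levels did not overlap in parental cells. In resistant cells they all but met, with FGR from 1.508 FPKM and SRC up to 1.504 FPKM. That gap is finer than the 2 decimals of the FPKM values, so the order of FGR and SRC in resistant cells is not settled.

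FYN, a broadly expressed kinase best known from T cell and brain signalling, was close in both libraries. It stood at 4.08 FPKM from 2058 counts in resistant cells and at 3.79 FPKM from 1879 counts in parental cells. FYN (ENSG00000010810) lies on chromosome 6 from 111660332 to 111873452, on the minus strand, with no overlapping row. FYN ranked above YES1 in resistant cells and below it in parental cells, and their counting intervals did not overlap in either library.

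**Figure D2:**
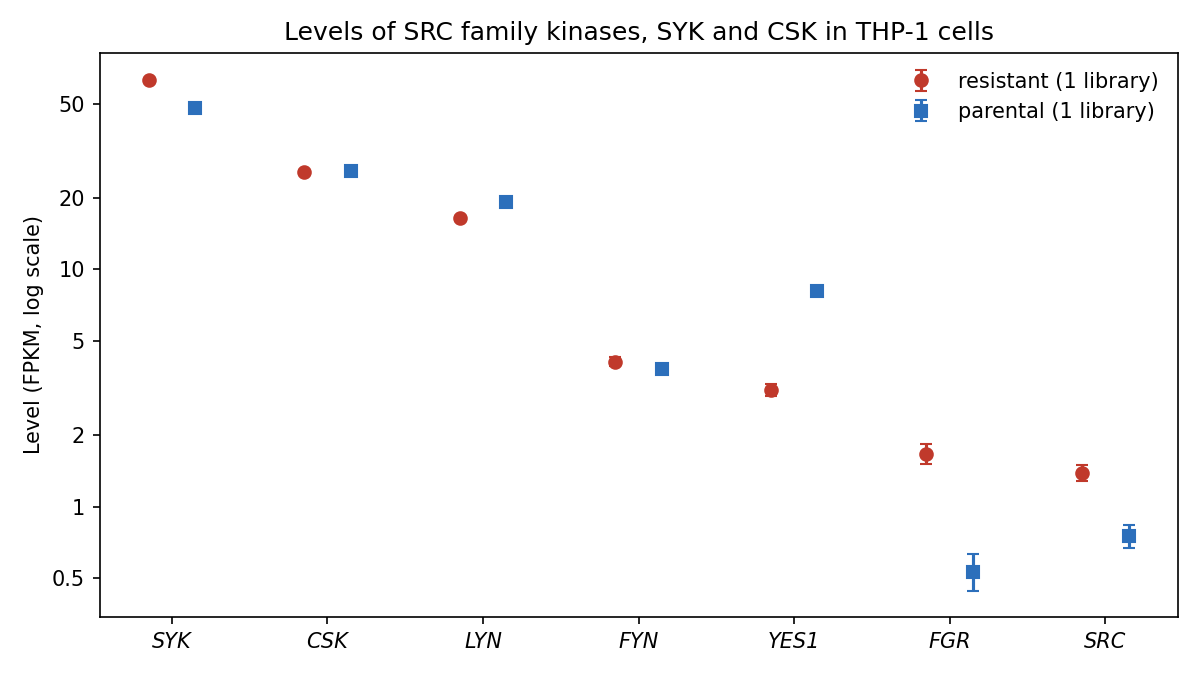
Level of each kinase gene in the resistant library (red circles) and the parental library (blue squares), in FPKM on a log scale; bars are 95% Poisson counting intervals, many smaller than the symbol. SYK is highest in both libraries (62.9 FPKM in resistant and 48.1 in parental cells), the red circle of YES1 lies clearly below its blue square (3.10 in resistant and 8.09 in parental cells), and FGR and SRC have clearly higher red circles.

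SYK, the kinase that the family activates at ITAM receptors, was the most abundant of the set. It stood at 62.9 FPKM from 22223 counts in resistant cells, against 48.1 FPKM from 16721 counts in parental cells. This level exceeded that of 95.6% of expressed genes in resistant cells and 94.0% in parental cells. Of the 1088 expressed genes within 2-fold of its mean level, 5.15% were at least as much higher by counts. SYK (ENSG00000165025) lies on chromosome 9 from 90801787 to 90898549, on the plus strand, with no overlapping row. CSK, the kinase that restrains the family, was second in both libraries, at 25.7 FPKM from 7975 counts in resistant cells and 26.1 FPKM from 7945 counts in parental cells. CSK (ENSG00000103653) lies on chromosome 15 from 74782057 to 74803198, on the plus strand. A microRNA row on the opposite strand within it, MIR4513, had 6 counts in resistant and 2 in parental cells.

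The balance of the 3 kinds of kinase can be read from summed levels in FPKM. The 5 family genes summed to 26.7 FPKM in resistant cells and 32.4 FPKM in parental cells. CSK relative to that sum was 0.964 in resistant cells and 0.805 in parental cells, and SYK relative to it was 2.36 in resistant and 1.49 in parental cells. SYK relative to CSK was 2.45 in resistant cells, against 1.85 in parental cells. The levels ran in the order SYK, CSK, LYN, FYN, YES1, FGR and SRC in resistant cells. In parental cells the order was SYK, CSK, LYN, YES1, FYN, SRC and FGR. Counting intervals of neighbours did not overlap in either order, but those of FGR and SRC in resistant cells all but met. Such intervals do not cover errors in transcript length, which enter a comparison between genes. All these values are transcript levels, from 1 library each, and say nothing of kinase activity.

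Counts of members by size depend on how low levels are handled. With 1 FPKM added to each value, 0 of the 7 genes were at least 2-fold higher in resistant cells, where 0.632% of all expressed genes were, and 1 gene (YES1) was at least 2-fold lower, against 1.23% of expressed genes. At 1.5-fold on the same scale, 1 gene (FGR) was higher, against 2.93% of expressed genes, and 1 (YES1) was lower, against 4.77%. By counts relative to the library total, which are not shrunk towards 1, FGR was the 1 gene at least 2-fold higher (2.11% of expressed genes) and YES1 the 1 gene at least 2-fold lower (3.56%). At 1.5-fold by counts, 2 genes (FGR and SRC) were higher, against 5.43%, and 1 (YES1) was lower, against 8.36%. On the FPKM + 1 scale the log2 ratios were 0.80 for FGR, 0.45 for SRC, 0.38 for SYK, 0.08 for FYN, -0.02 for CSK, -0.21 for LYN and -1.15 for YES1, and the median of all expressed genes was -0.02.

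**Figure D3:**
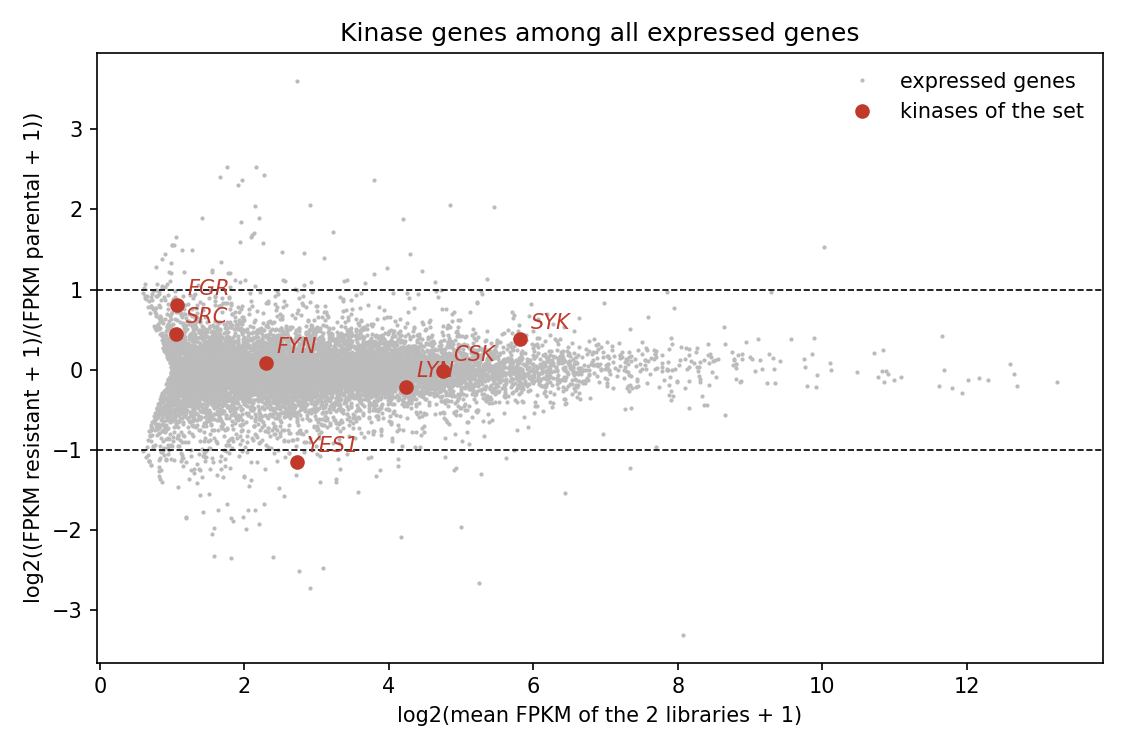
Log2 ratio of resistant over parental cells on the FPKM + 1 scale against the log2 of the mean level plus 1, for 11388 expressed genes (grey) and the kinase genes (red); dashed lines mark 2-fold. YES1 at -1.15 lies beyond the lower line, and the other 6 kinase genes lie between -0.21 and 0.80.

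By the rule of closest pattern, the genes most like YES1 were the proteoglycan gene CSPG4 (3.05 FPKM in resistant cells, 8.32 in parental cells), the septin gene SEPTIN3 (3.30 in resistant cells, 8.14 in parental cells) and NT5DC2 (2.77 in resistant cells, 8.38 in parental cells). Likeness was the Euclidean distance of log2(FPKM + 1) over the 2 libraries, which was 0.04, 0.07 and 0.13. With 2 libraries this says only that their levels were alike.

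Genes beside the kinase genes mostly had ratios near 1. The 14 expressed genes nearest YES1 (4 towards the chromosome end and 10 on the other side) had a median log2 ratio of -0.04, with a range of -0.21 to 0.18. The 20 nearest SRC had a median of 0.03 and the 20 nearest FGR a median of -0.04. One of the FGR neighbours stood out, the interferon-induced gene IFI6, which is the next expressed gene along the chromosome and was at 13.6 FPKM in resistant cells, against 5.72 FPKM in parental cells. On the other side of FGR, the actin regulator gene WASF2 was at 32.7 FPKM in resistant cells and 37.6 in parental cells. The 20 neighbours of FYN had a median of 0.16, and those of LYN, CSK and SYK medians of 0.07, -0.04 and 0.03. Among the SYK neighbours 2 were lower in resistant cells by 2-fold or more, and 0 higher.

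**Figure D4:**
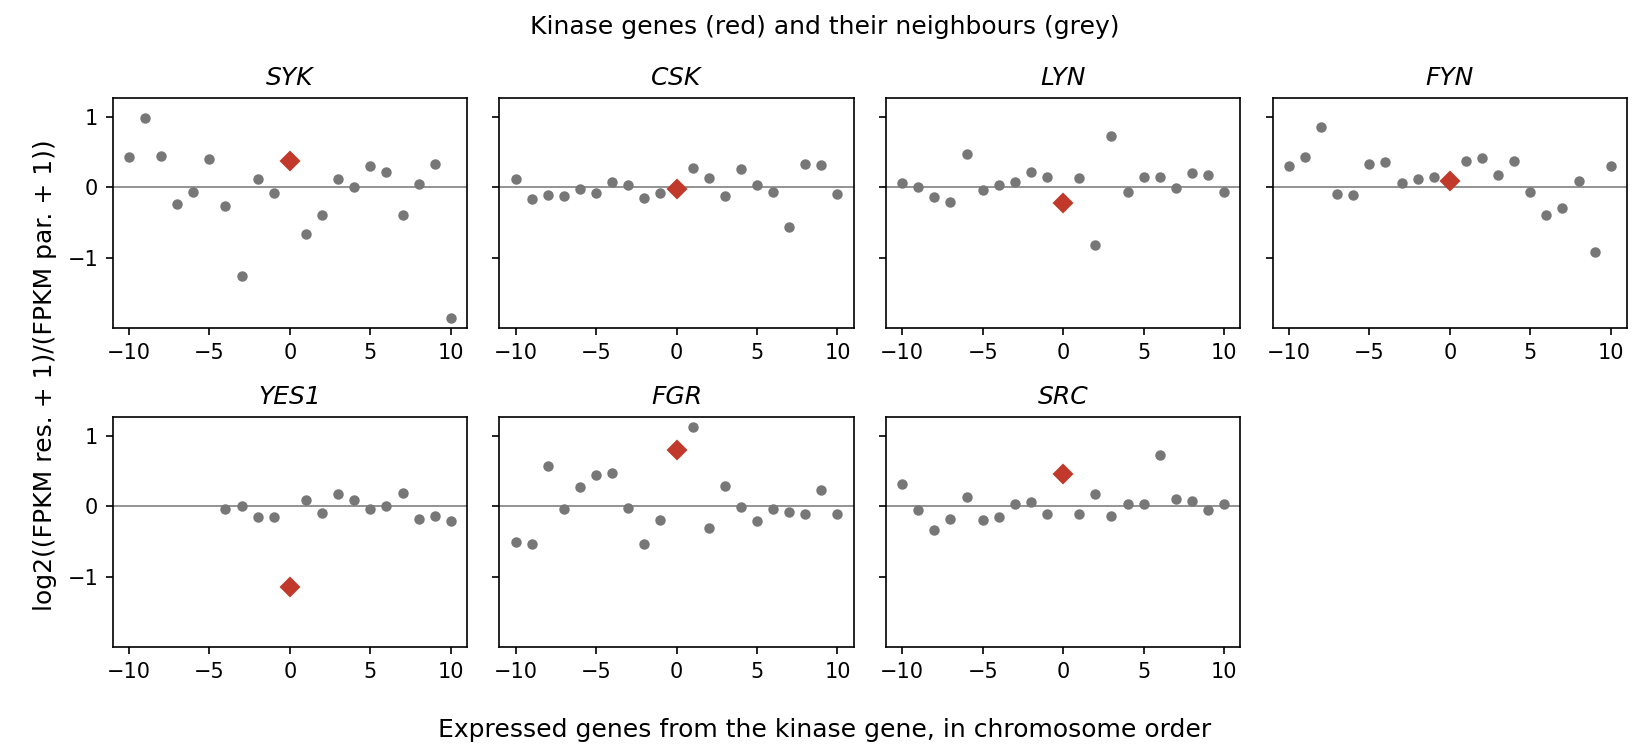
Log2 ratio on the FPKM + 1 scale of each kinase gene (red diamond, position 0) and of up to 10 expressed genes on each side in chromosome order (grey). The YES1 diamond at -1.15 lies below all of its 14 neighbours, while the grey point beside FGR at 1.12 is IFI6.

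Promoter windows are shown for FGR and YES1, the genes with the largest differences in each direction. Each window holds 250 bases before and 50 after a RefSeq start site (GRCh38.p14), and RefSeq windows matched 5 of the 7 genes. Capitals mark GGGCGG or its reverse complement CCGCCC, the core of the GC box. The FGR window is chr1:27635136-27635435 on the minus strand, and its start site is the 5′ end of the gene in the deposited table. The YES1 window is chr18:812193-812492 on the minus strand, with a start site 304 bases inside the 5′ end of the gene there.
FGR: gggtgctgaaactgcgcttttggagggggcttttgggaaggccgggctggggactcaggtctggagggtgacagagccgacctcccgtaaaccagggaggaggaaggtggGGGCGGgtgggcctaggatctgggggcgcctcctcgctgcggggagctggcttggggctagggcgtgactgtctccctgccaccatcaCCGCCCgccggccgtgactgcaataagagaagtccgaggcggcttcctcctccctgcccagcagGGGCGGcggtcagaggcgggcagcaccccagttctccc
YES1: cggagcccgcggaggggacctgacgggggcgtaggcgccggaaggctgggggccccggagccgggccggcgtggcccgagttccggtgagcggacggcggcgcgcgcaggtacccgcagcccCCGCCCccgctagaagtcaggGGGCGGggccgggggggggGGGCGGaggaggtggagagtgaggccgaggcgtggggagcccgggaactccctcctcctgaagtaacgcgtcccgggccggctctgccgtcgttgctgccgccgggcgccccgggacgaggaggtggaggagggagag

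Both windows held 3 GC box matches, and at least 1 match was present in 44.95% of 35116 promoter windows of the same length. Among the other genes with windows, a FYN window held 8 matches and another 2, a SYK window held 3, and the CSK window and the remaining FYN and SYK windows held 0. That SYK window had 2 matches to GGAAGT or its reverse complement ACTTCC, an ETS core, which was present in 22.8% of windows. The FGR and YES1 windows had 0 matches to that ETS core. RefSeq gives FGR another start site 8588 bases downstream, and counts per gene do not tell the 2 starts apart. These matches describe letters and not binding.

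Genes that work with the kinases were grouped by role into 7 lists, which held 132 genes, of which 129 had a row and 99 were expressed. On the FPKM + 1 scale 2 of the 99 were higher and 3 lower by 2-fold or more, or 2.02% and 3.03%, beside the 0.632% and 1.23% of all expressed genes. At 1.5-fold the numbers were 5 higher and 6 lower, or 5.05% and 6.06%, beside 2.93% and 4.77%. By counts relative to the library total, 3 of the 99 were higher and 4 lower by 2-fold or more. The shares of all expressed genes on that scale were 2.11% and 3.56%. At 1.5-fold by counts 7 were higher and 10 lower, beside 5.43% and 8.36%. The excess over all expressed genes thus depends on the scale. OSCAR passed the filter through the resistant library alone, and LAT, MALT1 and ZDHHC21 through the parental library alone. A filtered count is no evidence that these genes differ. The median log2 ratio of the 99 was -0.03, near that of all expressed genes. On the FPKM + 1 scale, 5 genes were at least 2-fold apart. They were an adaptor (DOK3), a pair of ITAM receptor genes (FCER1G and TREM2), a scaffold (GAB2) and a CSK relative (MATK). By counts, UBASH3B (higher) and ZDHHC21 (lower) were also at least 2-fold apart. The numbers of genes by size and the medians given below for each list are on the FPKM + 1 scale unless counts are named.

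The regulators are phosphatases, adaptors and ubiquitin ligases that act on these kinases, and 19 were expressed. On the FPKM + 1 scale 1 was higher and 0 lower by 2-fold or more (median log2 ratio -0.03). By counts 2 were higher (DOK3 and UBASH3B) and 0 lower. DOK3, an adaptor that dampens ITAM signalling, was at 11.4 FPKM in resistant cells, against 3.71 FPKM in parental cells, and 3.08-fold higher by counts (2.88 to 3.29). UBASH3B, a phosphatase that acts on SYK, was at 9.14 FPKM in resistant cells, against 4.13 FPKM in parental cells, and 2.22-fold higher (2.11 to 2.33). SLA2, an adaptor that lowers antigen receptor levels, stood at 1.43 FPKM in resistant cells and 2.07 in parental cells. The phosphatase PTPRC (CD45), which acts on the tail tyrosine, stood at 15.4 FPKM in resistant cells and 14.3 in parental cells, and PAG1, which brings CSK to the membrane, stood at 8.87 FPKM in resistant cells and 10.0 in parental cells. PTPN6, the phosphatase SHP-1, stood at 14.2 FPKM in resistant cells and 12.0 in parental cells.

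The activating receptors and adaptors were the list with the highest median log2 ratio, 0.36 over 8 expressed genes of 12 measured, with 6 above 0 and 2 below. FCER1G, the ITAM chain shared by Fc receptors, was at 32.8 FPKM in resistant cells, against 14.8 FPKM in parental cells, and 2.22-fold higher by counts (2.06 to 2.40). The receptor LILRA2, which signals through that chain, stood at 12.1 FPKM in resistant cells and 7.5 in parental cells. The Fc receptor FCGR1A stood at 41.2 FPKM in resistant cells and 29.6 in parental cells. TYROBP (DAP12), the other ITAM adaptor of myeloid cells, stood at 22.0 FPKM in resistant cells and 16.2 in parental cells. TREM2, a lipid receptor that signals through TYROBP, was at 16.5 FPKM in resistant cells, against 36.2 FPKM in parental cells, and 2.19-fold lower (2.05 to 2.35). Without the filter on low values the median of the 12 genes was 0.05. The genes that this adds were at or below 0.11 FPKM in both libraries, where the added 1 FPKM holds ratios near 1.

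The inhibitory (ITIM) list holds receptors and the phosphatase INPP5D (SHIP1), and 11 of its genes were expressed. Of these, 0 were at least 2-fold apart on the FPKM + 1 scale or by counts, and the median log2 ratio was -0.03. CLEC12A was at 1.20 FPKM in resistant cells, against 2.40 FPKM in parental cells, and 1.98-fold lower by counts (1.70 to 2.30). LILRB1 stood at 1.56 FPKM in resistant cells and 2.52 in parental cells. CD300LF stood at 12.6 FPKM in resistant cells and 8.70 in parental cells. INPP5D stood at 26.8 FPKM in resistant cells and 26.5 in parental cells.

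Among 28 expressed adaptors and effectors downstream of SYK and the family, 0 were higher and 1 lower by 2-fold or more (median log2 ratio -0.12). GAB2, a scaffold that brings in PI3 kinase and SHP2, was at 2.49 FPKM in resistant cells, against 6.17 FPKM in parental cells, and 2.47-fold lower by counts (2.31 to 2.65). LCP2 (SLP-76), an adaptor that SYK phosphorylates, was at 11.9 FPKM in resistant cells, against 6.74 FPKM in parental cells, and 1.77-fold higher (1.69 to 1.85). SH3BP2, an adaptor that binds SYK, stood at 3.81 FPKM in resistant cells and 5.98 in parental cells. CARD9, which carries SYK signals to NF-kB, stood at 26.8 FPKM in resistant cells and 19.6 in parental cells.

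Of 9 expressed adhesion and cytoskeletal substrates and STATs, 0 were at least 2-fold apart (median log2 ratio -0.13). ANXA2, the annexin phosphorylated by SRC, stood at 14.1 FPKM in resistant cells and 22.0 in parental cells. Vinculin (VCL) stood at 11.9 FPKM in resistant cells and 14.9 in parental cells. Paxillin (PXN) stood at 4.76 FPKM in resistant cells and 3.87 in parental cells. On the FPKM + 1 scale, 0 of 12 expressed genes for lipid anchoring and chaperones were at least 2-fold apart (median 0.00). By counts 1 (ZDHHC21) was at least 2-fold lower and 0 were higher. The palmitoyl transferase ZDHHC21 stood at 0.84 FPKM in resistant cells and 1.86 in parental cells, and 2.19-fold lower by counts (1.98 to 2.43). The chaperone HSP90AA1 stood at 369.5 FPKM in resistant cells and 332 in parental cells, and HSP90AB1 at 891 FPKM in resistant cells and 1035 in parental cells.

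Of 12 other expressed cytoplasmic tyrosine kinases, 0 were higher and 1 lower by 2-fold or more (median log2 ratio -0.11). MATK, a kinase related to CSK that also phosphorylates the family tail, was at 1.05 FPKM from 298 counts in resistant cells, against 3.33 FPKM from 922 counts in parental cells. It was 3.14-fold lower by counts (2.75 to 3.59), while CSK itself stood at 0.989-fold. TEC stood at 3.94 FPKM in resistant cells and 6.19 in parental cells, and ABL2 at 1.67 FPKM in resistant cells and 2.45 in parental cells. BTK, a target of the family and SYK, stood at 24.8 FPKM in resistant cells and 22.9 in parental cells. Focal adhesion kinase PTK2 did not reach 1 FPKM, with 174 counts in resistant and 491 counts in parental cells, whereas its relative PTK2B stood at 38.6 FPKM in resistant cells and 34.2 in parental cells.

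**Figure D5:**
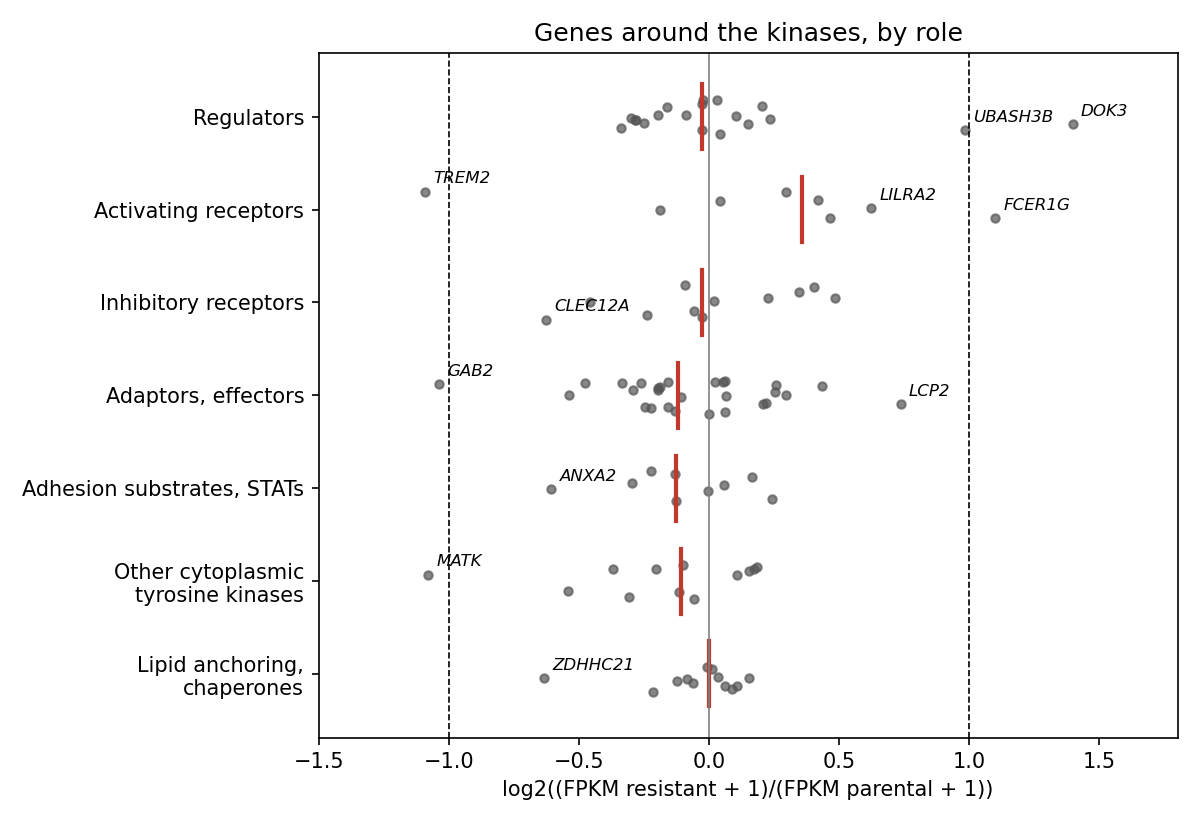
Log2 ratio of resistant over parental cells on the FPKM + 1 scale for 99 expressed genes in 7 lists by role; each point is a gene, the red bar is the list's median, dashed lines mark 2-fold, and genes at least 1.5-fold apart are named. Medians lie between -0.13 and 0.00 in 6 lists and at 0.36 among the activating receptors.

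The monocytic label was checked against marker lists: 8 of 10 monocytic markers reached 1 FPKM in resistant and 9 of 10 in parental cells. The summed level of those 10 was 261 FPKM in resistant cells and 391 in parental cells. LYZ, the lysozyme gene, made up nearly all of that gap, at 95.8 FPKM in resistant cells and 225 in parental cells, and the other 9 markers summed to 165.2 FPKM in resistant cells and 166.1 in parental cells. The myeloid factor SPI1 stood at 62.3 FPKM in resistant cells and 64.4 in parental cells, and CD14 had 4 counts in resistant and 56 in parental cells. Of the 10 markers, FCGR1A, given above among the receptors, was the 1 with a log2 ratio above 0, and 9 were below. Among those 9, CSF1R stood at 7.74 FPKM in resistant cells and 12.2 in parental cells. MPO stood at 0.94 FPKM in resistant cells and 2.81 in parental cells. The near-equal sums without LYZ thus do not mean that each marker was unchanged. The part of these marker levels in the kinase values was not tested. Of 5 measured B cell markers 0 reached 1 FPKM, with sums of 1.20 FPKM in resistant cells and 1.19 in parental cells. Of 6 measured T cell markers, the receptor chains CD3E and CD247 had 0 counts in resistant cells, which allows up to 3, and in parental cells CD3E had 3 and CD247 had 8. CD8A and CD2 had 0 counts in both libraries. The 1 T cell marker above 1 FPKM was CD4, which monocytic cells also express, at 28.2 FPKM in resistant cells and 22.0 in parental cells. Of 4 measured NK cell markers, NKG7 and NCAM1 reached 1 FPKM in both libraries, with sums over the list of 16.5 FPKM in resistant cells and 16.8 in parental cells, and GNLY and PRF1 had 0 counts in both. Of 4 measured fibroblast and epithelial markers 0 reached 1 FPKM.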

How the data were processed

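Poly(A) RNA of 1 resistant and 1 parental library was analysed from the authors' deposited table of 30856 gene rows. Groups were taken from the sample titles. Per the file headers, the authors gave FPKM and a count per gene for each library (whole numbers, by their values), on strand-marked libraries read as 150-base pairs per the labels' protocols. Tools that the submitters' processing notes name are StringTie 1.3.4d, HISAT2 2.0.4, cutadapt 1.9, edgeR and DESeq2, with GRCh38 as the build and no role given for any. The annotation release and strand setting are not given in the sources used here. The name of the resistant count column ends in a suffix without explanation in the labels.

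Log2 ratios used FPKM plus 1, which shrinks low genes. Genes entered with a symbol (22880 rows) and at least 1 FPKM in at least 1 library. Folds are counts per library total with exact Clopper-Pearson 95% intervals; levels carry exact Poisson intervals. Where a library had 0 counts, 0.5 was added to both counts for log2 count ratios. Rows without a symbol held 1.02% of resistant and 1.00% of parental counts. Intervals were run on simulated Poisson counts with known folds. Those counts hold no spread between cultures, so the run checks the calculation only. Members, gene lists and rules were chosen with earlier results of these data known. Named genes were all members, the 3 most different expressed genes of each list, every list gene 2-fold apart, and the 3 genes closest to YES1. IFI6, WASF2, PTPRC, PAG1, PTPN6, FCGR1A, TYROBP, INPP5D, CARD9, BTK, PTK2 and PTK2B were added for their role or position after their values were seen. OSCAR, LAT and MALT1 were added, also after their values were seen, because they passed the filter through 1 library alone. Scaling factors came from edgeR 4.0.16 (TMM) and DESeq2 1.42.0 in R 4.3.3, and all else from scipy 1.17.1, pandas 2.3.3 and numpy 2.4.6 in Python 3.11.15, with figures by matplotlib 3.10.9. Alternatives covered pseudocount, filter, scaling and the number of neighbours.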

Additional observations from a re-analysis of the deposited data

How the results depend on the processing

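The direction of FGR, SRC, SYK, FYN, LYN and YES1 was the same in each of 6 alternatives of pseudocount and scaling. CSK ran between -0.02 and 0.01 (log2), and was above 0 with TMM (0.01) and DESeq2 (0.005) scaling. The sizes of low genes depended on the pseudocount. FGR had a log2 ratio of 1.49 with 0.1 FPKM, 0.27 with 5 FPKM and 1.64 by counts, and YES1 had -1.36, -0.69 and -1.38. With 0.1 FPKM, with TMM or DESeq2 scaling of counts and with counts per library total, 1 member was higher by 2-fold or more and 2 by 1.5-fold or more. With 5 FPKM added, 0 members were higher by 1.5-fold or more and 0 lower by 2-fold or more, and with a minimum of 5 FPKM 0 were at least 1.5-fold higher. In the lists by role, adding 5 FPKM left 0 genes apart by 2-fold in either direction (0 higher, 0 lower), with 3 higher and 1 lower by 1.5-fold or more. The genes at least 1.5-fold lower numbered 10 with 0.1 FPKM and with each of the 3 count scalings, and 3 with a minimum of 5 FPKM. Over all expressed genes, 72 were higher and 140 lower by 2-fold or more, against 14 higher and 16 lower with 5 FPKM added, and 261 higher and 375 lower with TMM-scaled counts. These shifts follow from how much the pseudocount or filter weighs on low genes. Medians of lists moved by less than 1 SD of their genes in all alternatives run. Medians of neighbours moved by less than 1 SD of all expressed genes (0.344). Both are wide bounds, and the median of the activating receptors fell within them from 0.36 to 0.05 without the filter. That median was 0.46 with a minimum of 5 FPKM, 0.46 by counts per library total and 0.22 with 5 FPKM added. Depth limits FGR most, at 122 parental counts. No paired analysis was possible because each group has 1 library.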

Other observations

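The pathway terms that the deposited table itself assigns were also counted, for every term that it gives to at least 3 of the 7 kinase genes, with those kinases left out. This was added after the data were seen, and 7 terms met the rule. Counts are of expressed genes higher or lower in resistant cells by 1.5-fold or more on the FPKM + 1 scale, beside 2.93% higher and 4.77% lower over all expressed genes. In the chemokine signalling term, which holds FGR, LYN and SRC, 6 of 104 other genes were higher and 3 lower (median log2 ratio -0.05). In the Fc epsilon receptor term, which holds FYN, LYN and SYK, 4 of 49 others were higher and 2 lower (median -0.01). Platelet activation, with FYN, LYN, SRC and SYK, had 4 higher and 4 lower of 75 others (median -0.002). Adherens junction, with FYN, SRC and YES1, had 0 higher and 6 lower of 48 others (median -0.04). Epithelial signalling in Helicobacter pylori infection, with CSK, LYN and SRC, had 2 higher and 1 lower of 48 others (median 0.002). Kaposi sarcoma-associated herpesvirus infection, with LYN, SRC and SYK, had 3 higher and 4 lower of 127 others (median -0.02). Viral carcinogenesis, with the same kinases, had 2 higher and 3 lower of 139 others (median -0.03). By 2-fold or more on that scale, each of the 7 terms had at most 1 gene higher and at most 2 lower. The shares of all expressed genes were 0.632% and 1.23%. By counts at 2-fold, chemokine signalling had 5 higher and 0 lower, platelet activation 2 higher and 4 lower, and adherens junction 0 higher and 3 lower. Each other term had at most 2 higher and at most 2 lower. The shares of all expressed genes by counts were 2.11% and 3.56%.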
